A study of Mus musculus with 16 samples.

Results

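The 10 endothelial and angiogenic genes described here are Vegfa, Kdr, Flt1, Pecam1, Cdh5, Tek, Angpt1, Angpt2, Apln, and Aplnr, which were taken by symbol from the 21923 genes of the table. Each symbol stood on a single line, and all 10 genes passed the filter on low counts in every comparison. Poly(A) RNA of gastrocnemius, a hindlimb muscle, was sequenced from 16 mice, 4 per group, which had been bought at 6 to 8 weeks of age. The groups were NOR, CAC, AM, and KD. The NOR mice received no tumor cells and were given PBS. The CAC mice carried a subcutaneous tumor and received PBS, and the AM mice (titled T in the labels) carried the same tumors and received amiloride intraperitoneally at 2 mg/kg each day from day 9. The KD mice received PBS and carried tumors grown from cells in which Rab27a and Rab27b had been knocked down with lentiviral shRNA, a change meant to lower exosome release. Muscles were taken on day 30. In every group replicates 1 and 2 were C57BL/6 mice, whose tumors were LLC (Lewis lung carcinoma), and replicates 3 and 4 were BALB/c mice, whose tumors were CT26 (colon carcinoma), so strain and tumor line cannot be told apart. No group of healthy mice received amiloride in this RNA-seq, the knock-down is in the tumor cells and not in the muscle, and CAC is the cachexia model of the study.

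In muscle, VEGF-A is released largely by the muscle fibres and acts on endothelial cells, where KDR is the main signalling receptor and FLT1 binds the same ligand tightly, also as a soluble decoy. Angiopoietin-1 from perivascular and stromal cells activates the receptor TEK and keeps vessels quiescent, whereas angiopoietin-2, stored in endothelial cells, acts mainly as its context-dependent antagonist. PECAM1 and VE-cadherin (Cdh5) are adhesion proteins of endothelial junctions, and apelin, a peptide made by sprouting endothelium and other cells, acts through its G protein-coupled receptor APLNR.

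Promoter sequences from RefSeq (GRCm38.p6) were found for 5 of the 10 genes. In the GENCODE annotation of GRCm38 all 10 are protein coding: Vegfa at chr17:46016993-46032369, Kdr at chr5:75932827-75978458, Flt1 at chr5:147561604-147726011, Pecam1 at chr11:106654217-106750628, Angpt1 at chr15:42424723-42676977, Angpt2 at chr8:18690263-18741562, and Apln at chrX:48025146-48034853 on the minus strand, and Cdh5 at chr8:104101625-104144511, Tek at chr4:94739289-94874976, and Aplnr at chr2:85136225-85139923 on the plus strand. Promoters are printed for Apln, which had the largest fold change of the 10 genes, and for Flt1 and Kdr, the VEGF-A receptors whose fold changes had opposite signs. Each is the run of 250 bases before the start site on the gene's own strand, and capitals mark matches on either strand to the motifs searched. The sequences lie at chrX:48034854-48035103 (Apln), chr5:147726012-147726261 (Flt1), and chr5:75978456-75978705 (Kdr), all on the minus strand.
Apln: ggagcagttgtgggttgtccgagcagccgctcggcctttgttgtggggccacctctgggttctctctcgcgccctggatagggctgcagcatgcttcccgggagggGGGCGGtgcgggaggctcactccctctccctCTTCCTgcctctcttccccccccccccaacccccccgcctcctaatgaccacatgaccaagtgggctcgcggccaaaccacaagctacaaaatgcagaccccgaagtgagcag
Flt1: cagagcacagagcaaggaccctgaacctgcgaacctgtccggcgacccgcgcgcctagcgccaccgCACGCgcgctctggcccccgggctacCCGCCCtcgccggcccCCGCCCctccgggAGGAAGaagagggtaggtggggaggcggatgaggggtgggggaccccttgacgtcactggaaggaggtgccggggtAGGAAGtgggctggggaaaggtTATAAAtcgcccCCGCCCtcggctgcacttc
Kdr: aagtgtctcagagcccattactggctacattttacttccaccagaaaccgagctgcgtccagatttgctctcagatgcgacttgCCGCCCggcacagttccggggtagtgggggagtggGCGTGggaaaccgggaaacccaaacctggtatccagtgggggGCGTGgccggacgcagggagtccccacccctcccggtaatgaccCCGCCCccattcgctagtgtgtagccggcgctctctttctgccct
The motifs were the hypoxia response element cores ACGTG and GCGTG, the ETS motifs CCGGAAG and AGGAAG, the forkhead motif TGTTTAC, the GATA motif AGATAA, the GC box GGGCGG, and the TATA box TATAAA. In the windows of 300 bases around the start sites of 32851 promoters, they were present in 19.6%, 32.4%, 8.86%, 35.4%, 3.65%, 11.2%, 35.7%, and 13.6%, in that order. The Apln window held 1 AGGAAG and 1 GC box. The Flt1 window held 1 GCGTG, 2 AGGAAG, 3 GC boxes, and a TATA box starting 31 bases before the start site. The Kdr window held 2 GCGTG and 2 GC boxes, and none of the printed matches overlapped. These letters are described as sequence only, and binding was not measured.

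The 16 libraries held 35913190 to 61032708 counts each. Summed markers of muscle fibres (7 genes) stood at 54712 to 180124 CPM (read counts scaled to library size with TMM factors) and the endothelial panel of 25 further genes at 1420.5 to 2963 CPM, so both tissue compartments were present in every library. Summed lymphocyte markers were under 10 CPM in 5 libraries (NOR replicate 1, CAC replicates 1 and 4, and KD replicates 2 and 3; 0.736 to 4.36 CPM) and stood at 41.4 to 499 CPM in the other 11. Y-linked markers were at 0 in KD replicate 3 and at 109.98 CPM or more in the other libraries. The labels name both sexes for the BALB/c mice and the study's methods males, so that KD replicate 3 may differ in sex from the rest. Without it, as with it, 0 of the 10 genes were DEGs in edgeR's test of KD vs. CAC. The plot of summed marker levels shows these differences by mouse.

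**Figure D1:**
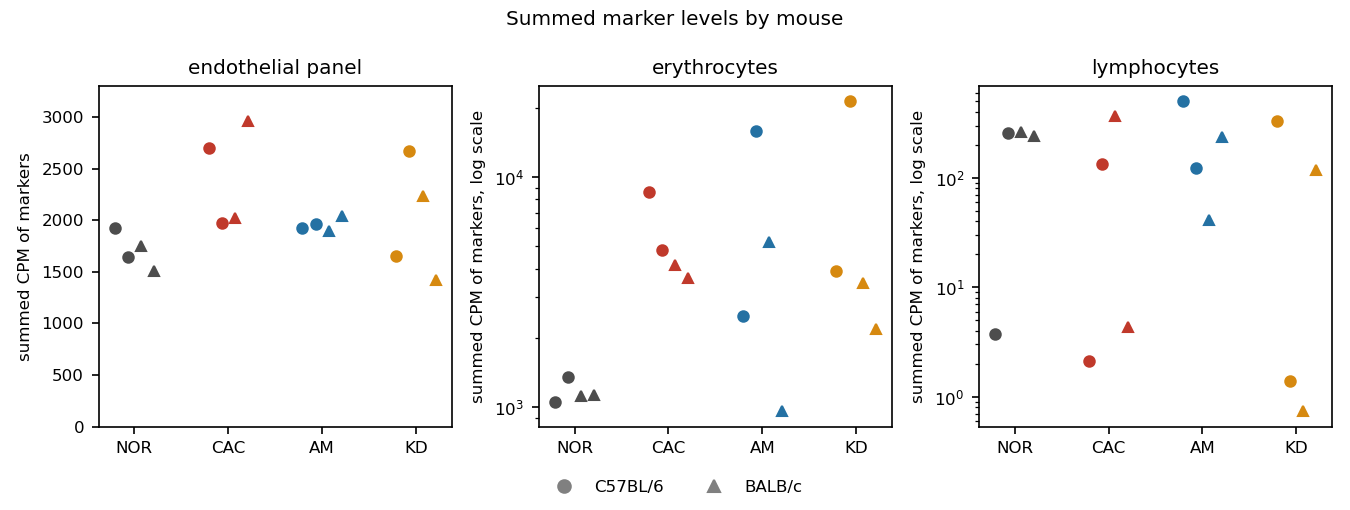
Summed CPM (TMM-scaled) of 25 endothelial, 5 erythrocyte, and 10 lymphocyte marker genes in each mouse, with circles for C57BL/6 and triangles for BALB/c; the axes of the erythrocyte and lymphocyte panels are logarithmic. The endothelial sums of the CAC mice (1973 to 2963) lay above those of the NOR mice (1505 to 1924), the erythrocyte sums of the CAC mice (3628 to 8615) lay above those of the NOR mice (1049 to 1359), and 5 libraries had lymphocyte sums under 10 CPM.

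In gastrocnemius of CAC mice, compared with that of NOR mice, transcripts of the endothelial genes moved in both directions. Flt1 and Pecam1 were upregulated, whereas Apln, Aplnr, and Angpt1 were downregulated, and Apln was 6.77-fold lower. Thus 5 of the 10 genes were differentially expressed genes (DEGs; FDR ≤ 0.05 and a change of 1.5-fold or more in either direction), 2 higher and 3 lower, where 9.45% of the 14666 genes tested were DEGs (4.32% higher and 5.13% lower). Over all genes 633 rose and 753 fell, and with total counts in place of TMM, which moved the median log2 fold change of all genes by 0.13, 959 rose and 619 fell. The median log2 fold change of the 10 genes was -0.30 and that of all genes tested 0.01. Vegfa and Kdr had log2 fold changes of -0.51 and -0.91 and missed the FDR limit in edgeR's test, and Cdh5, Tek, and Angpt2 also did not pass. DESeq2 put both Vegfa (-0.51, FDR = 0.0232) and Kdr (-0.91, FDR = 0.0347) within the FDR limit, and Kdr was a DEG there. Values follow by role, always in the order of replicates 1 to 4.

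**Figure D2:**
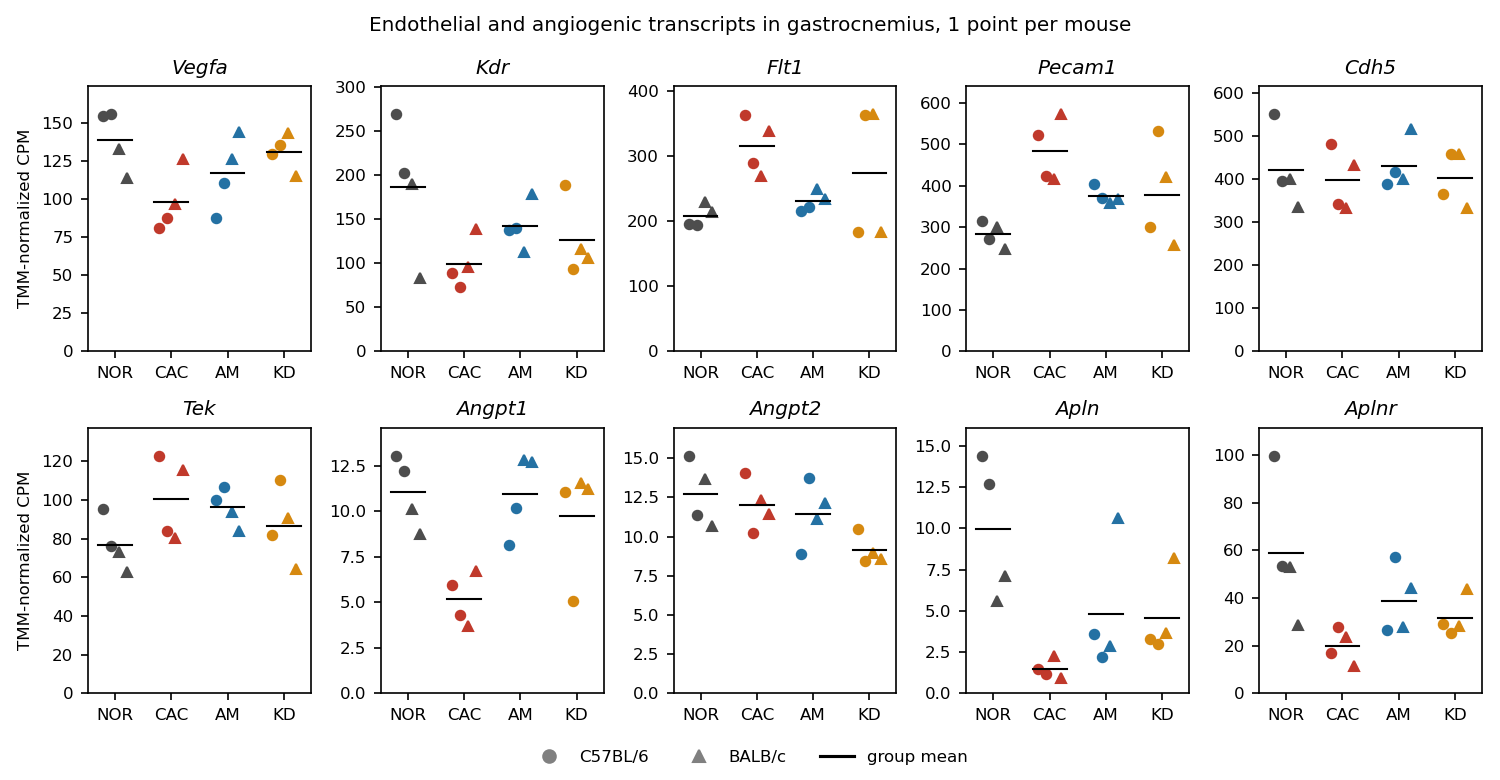
TMM-normalized CPM of the 10 genes in each of the 16 mice by group, each panel on its own axis from 0; circles are C57BL/6 mice, triangles are BALB/c mice, and lines are group means. The CAC mice lay above all NOR mice for Flt1 and Pecam1 and below all NOR mice for Angpt1, Apln, and Aplnr.

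Vegfa, the ligand, stood at 154, 156, 133, and 114 CPM in the NOR mice, at 80.8, 87.5, 97.1, and 126 CPM in the CAC mice, at 87.6, 110.3, 126, and 144 CPM in the AM mice, and at 129, 135, 143, and 115 CPM in the KD mice. CAC replicates 1 to 3, which include a BALB/c mouse, lay below every NOR mouse, whereas CAC replicate 4 lay above NOR replicate 4, so the groups overlapped. Vegfa's log2 fold change from NOR to CAC was -0.51 ± 0.16 (SE, n = 4 per group, FDR = 0.0744). Within strains, the difference of mean log2 CPM was -0.88 in C57BL/6 mice and -0.15 in BALB/c mice. Without CAC replicate 4 it was -0.65 and passed the test (FDR = 0.0262).

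Kdr, the main VEGF-A receptor, stood at 269, 203, 189.6, and 82.9 CPM in the NOR mice, at 89.1, 72.7, 95.7, and 139 CPM in the CAC mice, at 138, 140.0, 113, and 179 CPM in the AM mice, and at 189, 93.5, 116, and 106 CPM in the KD mice. NOR replicate 4 alone kept the NOR and CAC groups from separating. The log2 fold change of Kdr from NOR to CAC was -0.91 ± 0.34 (SE, FDR = 0.115), with differences of -1.54 within C57BL/6 and -0.12 within BALB/c mice. In edgeR's test Kdr passed in the C57BL/6 mice alone (-1.4996, FDR = 0.0486) and without NOR replicate 4 (-1.15, FDR = 0.0257).

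Flt1, which encodes both the membrane receptor and its soluble form (gene counts do not separate them), stood at 195, 194, 229, and 214 CPM in the NOR mice, at 363, 289, 269, and 338 CPM in the CAC mice, at 216, 222, 249, and 234 CPM in the AM mice, and at 184, 363, 364, and 183 CPM in the KD mice. Every CAC mouse lay above every NOR mouse, and the KD mice split into a pair at the CAC level and a pair at the NOR level. Flt1 rose in CAC vs. NOR by a log2 fold change of 0.60 ± 0.12 (SE, FDR = 0.0183), a 1.51-fold change that stood just over the 1.5-fold limit. It was higher within C57BL/6 (0.73) and within BALB/c mice (0.45). The call was lost without NOR replicate 1 (0.57, FDR = 0.0447), NOR replicate 2 (0.56, FDR = 0.0624), CAC replicate 1 (0.52, FDR = 0.0489), or CAC replicate 4 (0.56, FDR = 0.0368). It was also lost with upper-quartile scaling (0.54, under the fold limit), with all 16 libraries in 1 fit (0.60, FDR = 0.0870), and with the replicate block (0.59, FDR = 0.0547).

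The ratio of Flt1 to Kdr, taken on FPKM so that gene length is accounted for, was 1.23 ± 0.747 (SD, n = 4) in the NOR mice, 2.99 ± 0.743 in the CAC mice, 1.49 ± 0.339 in the AM mice, and 2.18 ± 1.19 in the KD mice. The NOR range (0.652 to 2.32) and the CAC range (2.18 to 3.66) overlapped through NOR replicate 4, whereas the AM range (1.18 to 1.98) lay below all CAC mice. The plot of the 3 ratios shows these values with those of the angiopoietins and the junction genes.

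**Figure D3:**
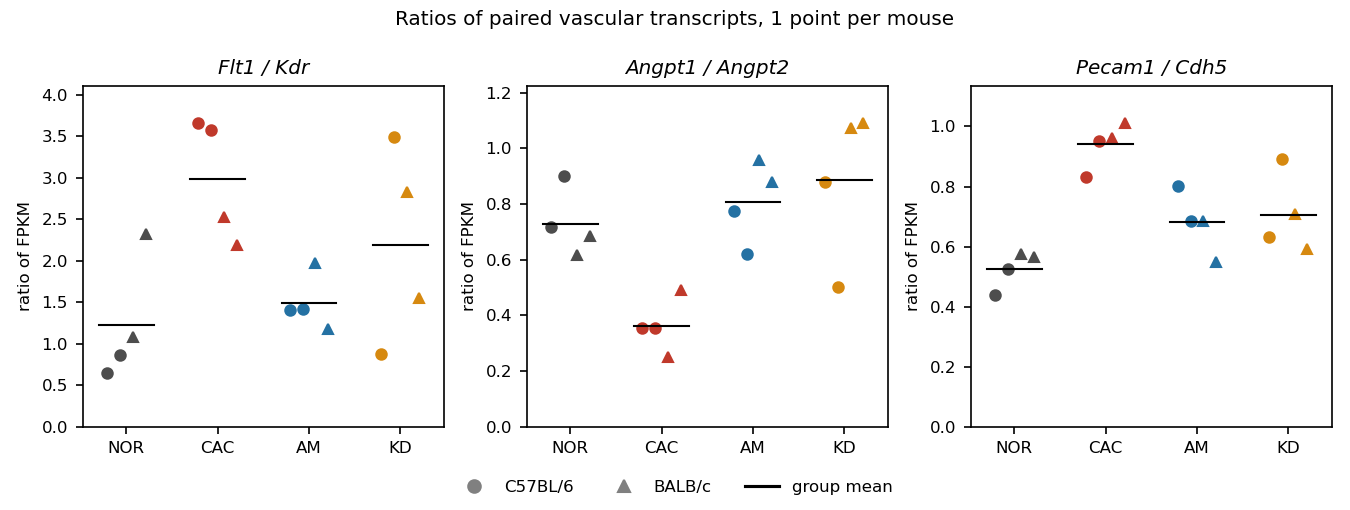
Ratios of FPKM between Flt1 and Kdr, Angpt1 and Angpt2, and Pecam1 and Cdh5 in each mouse, with lines at group means, circles for C57BL/6, and triangles for BALB/c. The CAC mice lay above all NOR mice for Pecam1 to Cdh5 (0.833 to 1.01 against 0.439 to 0.576) and below them for Angpt1 to Angpt2 (0.249 to 0.493 against 0.615 to 0.899).

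Among the other 7 genes of the VEGF family, 1 passed in CAC vs. NOR, where 9.45% of all genes tested were DEGs. Vegfd, a ligand that acts mainly on lymphatic endothelium, stood at 5.15, 3.22, 4.94, and 8.32 CPM in the NOR mice and at 20.1, 11.4, 19.3, and 36.8 CPM in the CAC mice, without overlap, and rose by a log2 fold change of 2.02 ± 0.40 (SE, FDR = 0.0154). The ligands Vegfb (-0.34, FDR = 0.331), Vegfc (-0.72, FDR = 0.0636), and Pgf (0.79, FDR = 0.156) did not pass, nor did the receptor Flt4 (0.27, FDR = 0.397). The co-receptors Nrp1 and Nrp2 had log2 fold changes of 0.02 and 0.08, and the median of the 7 genes was 0.08.

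Angpt1, the TEK agonist, stood at 13.0, 12.2, 10.1, and 8.77 CPM in the NOR mice, at 5.96, 4.31, 3.67, and 6.73 CPM in the CAC mice, at 8.17, 10.2, 12.8, and 12.7 CPM in the AM mice, and at 11.03, 5.07, 11.5, and 11.2 CPM in the KD mice. The CAC mice were the lowest of all groups apart from KD replicate 2, which lay within the CAC range. Angpt1 fell in CAC vs. NOR by 1.09 ± 0.23 on the log2 scale (SE, FDR = 0.0180), with differences of -1.31 within C57BL/6 and -0.92 within BALB/c mice. The call was lost without NOR replicate 2 (-1.04, FDR = 0.0568).

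Angpt2, the context-dependent antagonist, stood at 15.1, 11.4, 13.7, and 10.7 CPM in the NOR mice, at 14.1, 10.2, 12.4, and 11.4 CPM in the CAC mice, at 8.86, 13.7, 11.2, and 12.1 CPM in the AM mice, and at 10.5, 8.47, 8.97, and 8.58 CPM in the KD mice. The NOR and CAC mice interleaved, and its log2 fold change from NOR to CAC was -0.08 ± 0.15 (SE, FDR = 0.781). The FPKM ratio of Angpt1 to Angpt2 was 0.729 ± 0.121 (SD, n = 4) in the NOR mice and 0.362 ± 0.100 in the CAC mice, without overlap, and 0.807 ± 0.147 in the AM mice and 0.886 ± 0.274 in the KD mice.

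Tek, the angiopoietin receptor, stood at 95.4, 76.2, 73.3, and 62.7 CPM in the NOR mice, at 122, 83.7, 80.5, and 115 CPM in the CAC mice, at 99.8, 107, 94.0, and 84.2 CPM in the AM mice, and at 81.9, 110.3, 90.7, and 64.1 CPM in the KD mice. NOR replicate 1 lay above the 2 lower CAC mice. The log2 fold change of Tek from NOR to CAC was 0.39 ± 0.18 (SE, FDR = 0.196). Of the TEK and apelin partners, Tie1, the co-receptor of TEK, had a log2 fold change of 0.23 (FDR = 0.366). Angpt4, a further TEK ligand of low level (1.28 ± 0.214 CPM in NOR and 0.354 ± 0.174 CPM in CAC mice, SD, n = 4), fell by 1.86 (FDR = 0.0252). Apela, an alternative APLNR ligand, had 0 counts in 15 libraries and 2 counts in KD replicate 2 and was not tested.

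Pecam1 stood at 315, 271, 300.4, and 248 CPM in the NOR mice, at 522, 424, 416, and 572 CPM in the CAC mice, at 404, 371, 358, and 369 CPM in the AM mice, and at 299.7, 531, 422, and 256 CPM in the KD mice. The CAC mice lay above all NOR and all AM mice, and the AM mice above all NOR mice. Pecam1 rose in CAC vs. NOR by a log2 fold change of 0.77 ± 0.14 (SE, FDR = 0.0126), and was higher within C57BL/6 (0.69) and within BALB/c mice (0.84). The call held when each library was left out in turn.

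Cdh5, the other junction gene, stood at 549.6, 396, 401, and 336 CPM in the NOR mice, at 482, 342, 332, and 433 CPM in the CAC mice, at 387, 415, 401, and 515 CPM in the AM mice, and at 365, 457, 457, and 332 CPM in the KD mice. The groups overlapped, with a log2 fold change in CAC vs. NOR of -0.08 ± 0.19 (SE, FDR = 0.823). The FPKM ratio of Pecam1 to Cdh5 was 0.527 ± 0.0621 (SD, n = 4) in the NOR mice, 0.940 ± 0.0763 in the CAC mice, 0.681 ± 0.102 in the AM mice, and 0.706 ± 0.133 in the KD mice. The 4 CAC mice lay above all NOR and all AM mice.

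Apln stood at 14.4, 12.7, 5.62, and 7.09 CPM in the NOR mice, at 1.496, 1.18, 2.26, and 0.928 CPM in the CAC mice, at 3.63, 2.20, 2.85, and 10.6 CPM in the AM mice, and at 3.32, 3.02, 3.64, and 8.22 CPM in the KD mice. The CAC values rest on 53 to 119 counts per library, and the highest CAC mouse lay under the lowest NOR mouse. Apln fell in CAC vs. NOR by 2.76 ± 0.40 on the log2 scale (SE, FDR = 0.00544), with differences of -3.31 within C57BL/6 and -2.09 within BALB/c mice, and the call held when each library was left out in turn.

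Aplnr, the apelin receptor, stood at 99.3, 53.6, 53.0, and 28.7 CPM in the NOR mice, at 16.9, 27.9, 23.5, and 11.4 CPM in the CAC mice, at 26.4, 57.3, 27.7, and 44.2 CPM in the AM mice, and at 29.2, 25.2, 28.2, and 43.6 CPM in the KD mice. The highest CAC mouse (27.9 CPM) and the lowest NOR mouse (28.7 CPM) almost met. Aplnr fell in CAC vs. NOR by 1.56 ± 0.40 on the log2 scale (SE, FDR = 0.0358), with differences of -1.75 within C57BL/6 and -1.25 within BALB/c mice. The call was lost without NOR replicates 1 (-1.18, FDR = 0.0707), 2 (-1.60, FDR = 0.0771), or 3 (-1.61, FDR = 0.0765), and without CAC replicates 1 (-1.49, FDR = 0.0899), 3 (-1.62, FDR = 0.0558), or 4 (-1.37, FDR = 0.0677).

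Per length, Cdh5 was the most abundant of the 10 transcripts in the NOR mice at 185 ± 22.5 FPKM (SD, n = 4), followed by Pecam1 (96.7 ± 6.70) and Vegfa (85.2 ± 11.4). Flt1 (30.7 ± 4.23), Kdr (29.8 ± 10.7), and Aplnr (27.5 ± 11.1) stood close together and did not differ beyond their spread, and neither did Pecam1 and Vegfa. Tek stood at 16.5 ± 1.61 FPKM, within the range of Aplnr. Angpt2 (3.44 ± 0.328), Apln (3.01 ± 1.15), and Angpt1 (2.49 ± 0.353) were the least abundant, and the range of Apln overlapped those of both angiopoietins, which did not overlap each other. In the CAC mice Cdh5 (192 ± 27.0 FPKM) and Pecam1 (179.7 ± 27.0) had overlapping ranges at the top. Flt1 stood at 50.03 ± 4.89 FPKM, Tek (23.6 ± 4.12) had a higher mean than Kdr (17.8 ± 5.67) and Aplnr (10.5 ± 4.08), and Apln (0.502 ± 0.253) was the lowest.

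The endothelial panel held 25 genes such as Cldn5, Esam, and Erg that are not among the 10. In CAC vs. NOR its median log2 fold change was 0.47. As DEGs, 9 of its genes rose and 0 fell, beside 4.32% and 5.13% of all genes tested. The log2 fold change was above 0 for 21 of the 25, and 1 gene was lower at an unadjusted p under 0.05. The DEGs with the lowest p-values were Ecscr (0.91, FDR = 0.00500), S1pr1 (0.99, FDR = 0.0112), Sox17 (0.95, FDR = 0.0138), and Gpihbp1 (1.02, FDR = 0.0142), the last an anchor of lipoprotein lipase on capillaries. In bulk muscle, endothelial cell number, RNA per cell, and the share of RNA from other cells cannot be told apart. Summed muscle fibre markers had means of 136667 CPM in the NOR and 92561 CPM in the CAC mice, and their part in the panel's rise was not tested. Set against the panel, as the difference between a gene's log2 CPM and the panel's mean log2 CPM in the same mouse, the 10 genes sorted otherwise. Pecam1 was higher in all CAC than in all NOR mice (2.88 ± 0.07 against 2.57 ± 0.03, SD, n = 4), and Flt1 and Tek overlapped (differences of 0.13 and -0.08).

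The other 7 genes, Vegfa, Kdr, Cdh5, Angpt1, Angpt2, Apln, and Aplnr, were lower in all CAC than in all NOR mice on this scale, where 29.8% of all genes tested were lower without overlap and 1.64% higher. Their differences ran from -0.53 for Cdh5 and -0.54 for Angpt2 through -0.97 for Vegfa and -1.29 for Kdr to -3.15 for Apln. The panel itself rose, so a gene unchanged on CPM is lower on this scale. Cdh5 and Angpt2 each had a log2 fold change of -0.08 without it. The differences are not levels per endothelial cell, and they do not account for RNA of other cells, such as Vegfa from muscle fibres. On CPM itself, 5 of the 10 genes separated the groups without overlap, 2 higher and 3 lower, against 22.8% of all genes (12.3% and 10.5%). At an unadjusted p under 0.05, 7 of the 10 genes differed (2 higher and 5 lower), against 29.1% (15.5% and 13.6%). For each gene without overlap the exact two-sided permutation p was 0.0286, the smallest that 4 against 4 mice can give.

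Other cell types also differed between the CAC and NOR libraries. All 5 erythrocyte markers rose in CAC vs. NOR (median log2 fold change of 2.30). Of 6 neutrophil markers 3 rose, and of 6 fibroblast markers, whose sums were 2322 to 3073 CPM in the NOR and 839.8 to 1377 CPM in the CAC mice, 2 fell, namely the collagen genes Col1a1 (-3.61) and Col3a1 (-3.003). No marker of muscle fibres, macrophages, lymphocytes, adipocytes, or Schwann cells passed. The 7 muscle fibre markers nevertheless all had log2 fold changes below 0 (median -0.30), with sums of 117005 to 180124 CPM in the NOR and 54712 to 121958 CPM in the CAC mice. The 7 macrophage markers had a median of 0.64 and the 10 lymphocyte markers one of -0.58. With the erythrocyte marker level as a covariate, none of the 10 genes passed in CAC vs. NOR: Apln had a log2 fold change of -3.004 (FDR = 0.562), Angpt1 of -1.30 (FDR = 0.632), Pecam1 of 0.78 (FDR = 0.660), Aplnr of -1.24 (FDR = 0.815), and Flt1 of 0.25 (FDR = 0.860). The marker level does not overlap between the groups, and its part in the result cannot be told apart from that of the tumor. Without the 5 libraries low in lymphocyte markers, Angpt1 stayed a DEG (-1.38, FDR = 0.0393), and Apln (-2.29, FDR = 0.0650), Pecam1 (0.62, FDR = 0.0721), Flt1 (0.39, FDR = 0.148), and Aplnr (-0.81, FDR = 0.174) kept their direction and did not pass.

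In gastrocnemius of AM mice, compared with that of CAC mice, Angpt1 was the single DEG of the 10 genes in edgeR's test, where 3.66% of 14674 genes were DEGs (1.63% higher and 2.03% lower; 239 and 298 genes, and 279 and 232 with upper-quartile scaling). It rose by a log2 fold change of 1.09 ± 0.23 (SE, FDR = 0.0371) and was higher in every AM than in every CAC mouse, with differences of 0.84 within C57BL/6 and 1.35 within BALB/c mice. The call was lost without AM replicate 1, 2, 3, or 4 (1.00 to 1.20, FDR = 0.0530 to 0.101) and without CAC replicate 1, 2, or 3 (0.95 to 1.16, FDR = 0.0770 to 0.0949). It was also lost without the 5 libraries low in lymphocyte markers (1.46, FDR = 0.0746). The same held with strain as a covariate, with the replicate block, without a count filter, with all 16 libraries in 1 fit, and in either strain alone. Of the 6 fibroblast markers, Col1a1 (3.02) and Col3a1 (2.67) rose in the same comparison, with sums of 1906 to 2656 CPM in the AM mice, and 0 of 5 erythrocyte markers passed (5 of 5 higher, median 0.20). Their part in the result was not tested beyond the fit with the erythrocyte marker level as a covariate (1.07, FDR = 0.0731). The comparisons of AM and KD with CAC use the same CAC mice as CAC vs. NOR, so that the values below are given beside those above and are not independent of them.

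Apln had a log2 fold change of 1.73 ± 0.55 (SE, FDR = 0.109) in AM vs. CAC, and its AM values overlapped the CAC values through AM replicate 2. Without AM replicate 4 (10.6 CPM), the log2 fold change of Apln was 0.98 (FDR = 0.219), and DESeq2 on all 8 libraries called it (1.74, FDR = 0.0172). AM replicate 4 also had the lowest sums of the AM mice for erythrocyte markers (961 CPM against 2501 to 15868), neutrophil markers (17.0 CPM against 53.5 to 249), and genes of activated endothelium (62.8 CPM against 141 to 156). The NOR mice had 1049 to 1359, 4.18 to 36.4, and 38.9 to 68.5 CPM for these sums, and the part of this difference in the Apln value was not tested. Aplnr had a log2 fold change of 0.97 ± 0.34 (FDR = 0.146; 0.98 with FDR = 0.0366 in DESeq2) and Kdr one of 0.53 ± 0.21 (FDR = 0.192). Flt1 had a log2 fold change of -0.45 ± 0.12 (FDR = 0.0640) and Pecam1 one of -0.36 ± 0.13 (FDR = 0.151), and both were lower in every AM than in every CAC mouse. Flt1 was within the FDR limit, though under the fold limit, in DESeq2 (-0.43, FDR = 0.00945) and with total counts (-0.50, FDR = 0.0362). Vegfa (0.26), Cdh5 (0.12), Tek (-0.06), and Angpt2 (-0.06) had smaller values. At an unadjusted p under 0.05, 6 of the 10 genes differed (4 higher and 2 lower) beside 21.7% of all genes (9.47% and 12.2%), and 3 separated the groups without overlap (1 higher and 2 lower) beside 15.7% (6.08% and 9.61%). Relative to the endothelial panel, Kdr (0.78), Cdh5 (0.35), and Angpt1 (1.33) were higher in all AM than in all CAC mice, where 10.6% of all genes were. The panel itself had 0 DEGs in edgeR's test (1 higher and 7 lower at an unadjusted p under 0.05) and a median of -0.21.

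**Figure D4:**
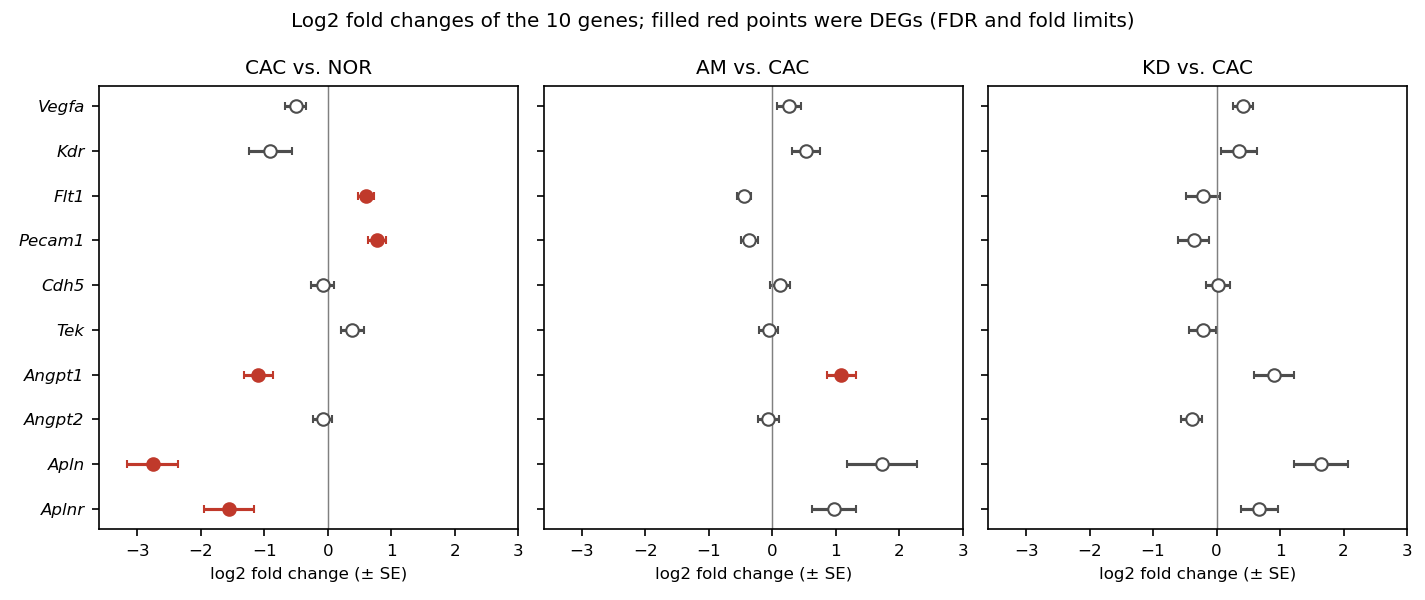
Log2 fold changes of the 10 genes with their standard errors in the 3 comparisons that use the CAC mice (4 mice per group), with filled red points for DEGs. In CAC vs. NOR 5 genes were DEGs, in AM vs. CAC Angpt1 was the single DEG, and in KD vs. CAC there was none; the CAC mice are shared by the 3 comparisons.

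In gastrocnemius of KD mice, compared with that of CAC mice, 0 of the 10 genes were DEGs in edgeR's test, where 0.00685% of 14593 genes (1 gene) were, and 5 of the 10 had an unadjusted p under 0.05 (4 higher and 1 lower) beside 11.1% of all genes (6.06% and 5.09%). Apln was higher in every KD than in every CAC mouse, with a log2 fold change of 1.64 ± 0.43 (SE, FDR = 0.268), and it was the single gene of the 10 to separate the groups, beside 7.00% of all genes (3.63% higher and 3.37% lower). DESeq2 called Apln (FDR = 0.0196). Angpt1 had a log2 fold change of 0.91 ± 0.32 (FDR = 0.358), Aplnr of 0.67 (FDR = 0.446), Vegfa of 0.42 (FDR = 0.389), and Angpt2 of -0.39 (FDR = 0.416). Kdr (0.35), Flt1 (-0.21), Pecam1 (-0.36), Tek (-0.22), and Cdh5 (0.02) lay within the spread of the mice. Relative to the panel, Vegfa was higher in all KD than in all CAC mice (by 0.68), where 3.25% of all genes were.

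The KD mice were uneven for several of the 10 genes. KD replicates 2 and 3, both low in lymphocyte markers, had the higher Flt1 (363 and 364 CPM), Pecam1 (531 and 422), Cdh5 (457 each), and Tek (110.3 and 90.7), and their endothelial panel sums were 2672 and 2239 CPM against 1657 and 1420.5 CPM in replicates 1 and 4. The same KD replicates 2 and 3 had lower sums of fibroblast markers (969 and 748 CPM against 2864 and 3123) and of macrophage markers (79.8 and 45.0 CPM against 359 and 362). Their sums of slow fibre markers were higher (5713 and 4023 CPM against 1206 and 1900.04). Among the CAC mice, replicates 1 and 4, also low in lymphocyte markers, had the higher Flt1, Pecam1, Cdh5, and Tek and panel sums of 2698 and 2963 CPM, against 1973 and 2019 CPM in replicates 2 and 3. NOR replicate 1, the remaining library low in lymphocyte markers, was the highest NOR mouse for Pecam1, Cdh5, Tek, and the panel sum (1924 CPM) but not for Flt1 (195 CPM). The part of this difference in the comparisons was not tested beyond the fits without these libraries and with the lymphocyte marker level as a covariate. With that covariate, Pecam1 (0.68, FDR = 0.00836), Angpt1 (-1.27, FDR = 0.00396), Apln (-2.76, FDR = 0.00599), and Aplnr (-1.56, FDR = 0.0356) stayed DEGs in CAC vs. NOR, and Flt1 (0.54, FDR = 0.0237) stood under the fold limit.

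Against the NOR gastrocnemius, 0 of the 10 genes were DEGs in the AM or KD gastrocnemius in edgeR's test, where 0% of genes were DEGs in either comparison. In AM vs. NOR 2 of the 10 genes had an unadjusted p under 0.05 beside 9.19% of all genes, and in KD vs. NOR 3 did beside 3.54%. Pecam1 had a log2 fold change of 0.42 in both comparisons (FDR = 0.518 in AM and 0.999 in KD), Apln of -1.03 and -1.10 (FDR = 0.565 and 0.999), and Aplnr of -0.57 and -0.87 (FDR = 0.641 and 0.999). Within strains Apln had differences of -2.24 in C57BL/6 and -0.20 in BALB/c mice in AM vs. NOR and of -2.08 and -0.20 in KD vs. NOR, and without AM replicate 4 that of AM vs. NOR was -1.76. Pecam1 was the single gene of the 10 whose AM mice (358 to 404 CPM) all lay above the NOR mice (248 to 315 CPM), as did 2.13% of genes, and Angpt2 the single one whose KD mice all lay below them, as did 0.929% of genes. Between AM and KD no gene of the 10 had an unadjusted p under 0.05, where 1.11% of all genes did.

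Whether the response differed between the strains, and with them the tumor lines, was tested as an interaction. In edgeR's test 0 of the 10 genes and 0 of all genes had an FDR of at most 0.05 in the 3 comparisons with CAC mice (CAC vs. NOR, then AM and KD vs. CAC: 717, 1821, and 825 genes at an unadjusted p under 0.05). The largest differences between the strains in CAC vs. NOR were those of Apln (1.34 ± 0.59, SE, FDR = 0.998), Kdr (1.33 ± 0.57, FDR = 0.998), and Vegfa (0.74 ± 0.22, FDR = 0.940), each given as BALB/c minus C57BL/6 on the log2 scale. With 2 mice per strain and group, these intervals are wide.

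Genes around the 10 in the vascular programme gave the following counts in CAC vs. NOR, where 4.32% of all genes were DEGs with higher and 5.13% with lower values. Of 10 arterial and venous genes 4 rose and 0 fell (median 0.69): Sema3g (1.25), Plvap (1.15), the endothelial clotting factor gene Vwf (0.87), and Ackr1 of venules (2.31). Of 5 genes of activated endothelium 3 rose, which were the leukocyte adhesion genes Selp (2.78), Sele (2.65), and Icam1 (1.16). Sele was of low level, with means of 0.744 CPM in the NOR and 4.70 CPM in the CAC mice. Of 10 Notch genes 1 rose (Notch4, 0.89). Of 11 tip cell genes 1 rose (Adm, which encodes adrenomedullin, 0.67) and 2 fell, the basement membrane genes Nid2 (-1.15) and Nid1 (-0.81). No lymphatic gene of 7 passed, and of 10 mural cell genes 1 fell (Cspg4, -0.66).

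Hypoxia response genes and muscle regulators of Vegfa moved in both directions. Of 18 hypoxia response genes 4 rose, among them Ddit4 (2.37), Egln3 (1.96), and Bnip3 (1.24), and 2 fell, among them Car9 (-1.13), with a median of 0.35. Car9 was of low level, with means of 1.56 CPM in the NOR and 0.716 CPM in the CAC mice. Vegfa, which the hypoxia response is known to induce, had -0.51. Of 7 muscle regulators of Vegfa 2 rose, Foxo1 (1.40) and Foxo3 (0.94), and 2 fell, Esrra (-0.73) and Ppargc1b (-0.69). Of 10 angiogenesis inhibitors 3 fell: Serpinf1 (-1.80), which encodes PEDF, the matrix gene Sparc (-1.24), and Col18a1 (-1.05), the source of endostatin. Summed fibroblast markers were also lower, at 2322 to 3073 CPM in the NOR and 839.8 to 1377 CPM in the CAC mice. Their part in the fall of these 3 genes was not tested.

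**Figure D5:**
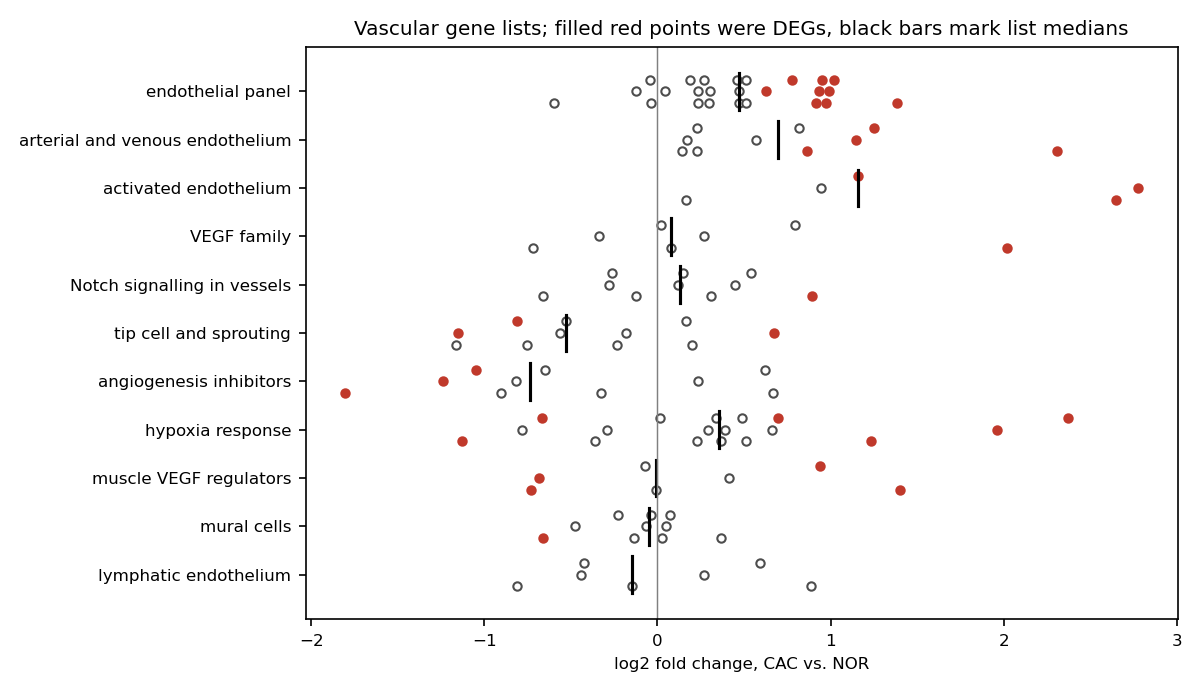
Log2 fold changes in CAC vs. NOR of each gene tested in 11 vascular and regulatory lists, with filled red points for DEGs and black bars at list medians. All genes of the arterial and venous list (median 0.69) and of the activated endothelium list (median 1.16) lay to the right of 0. The median of the 10 angiogenesis inhibitors (-0.73) lay to the left, with 3 of these genes to the right.

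In AM vs. CAC, where 3.66% of all genes were DEGs, the 3 inhibitor genes that had fallen in CAC vs. NOR rose, Serpinf1 by 1.45, Col18a1 by 1.08, and Sparc by 0.90. Of 6 fibroblast markers, Col1a1 (3.02) and Col3a1 (2.67) rose as well, and their part in the rise of the inhibitor genes was not tested. Vegfd fell by 2.12 (FDR = 0.0254), to 2.87, 7.46, 5.87, and 3.88 CPM in the AM mice. Nid2 rose (0.95), Hey1, a Notch target, fell (-0.64), and of the hypoxia response genes Bnip3 (-1.13), Egln3 (-1.74), and the lipoprotein receptor gene Vldlr (-0.70) fell and 2 rose, among them the glycolytic regulator Pfkfb3 (1.41). Foxo1 (-1.32) and Foxo3 (-0.84) fell and Ppargc1b rose (0.88). No arterial, venous, activated endothelium, lymphatic, or mural gene passed. In KD vs. CAC 0 genes passed in any of these lists, where 0.00685% of all genes were DEGs. At an unadjusted p under 0.05, 6.06% of all genes were higher and 5.09% lower. Beside these shares, 2 of 25 panel genes were lower, and of 18 hypoxia genes 1 was higher and 3 were lower. Of 7 VEGF family genes 1 was higher and 2 were lower. Of 10 angiogenesis inhibitors 2 were higher and 1 lower, and of 7 muscle regulators of Vegfa 2 and 1. Of 11 tip cell genes 1 was higher, and of 10 mural genes 1.

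Across the 16 libraries, the genes with the most similar log2 CPM pattern among 13187 genes were, for Pecam1, Esam (r = 0.96), Pnrc1 (0.95), and Sema3g (0.95), of which Esam belongs to the panel and Sema3g to the arterial list. For Kdr they were Tnfaip2 (0.91), Pcdh12 (0.90), and Unc5b (0.89). For Vegfa they were Ndufab1 (0.93) and Cycs (0.87), which encode mitochondrial proteins, and Rilp (0.87). Flt1 was followed by Mark4 (0.94), Eif5b (0.93), and Lnx1 (0.93), and Angpt1 by Fer1l6 (0.96), Trak2 (0.94), and Aldh1l2 (0.94).

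Apln was closest to Hddc2 (0.93), Dusp10 (0.88), and Fads6 (0.88), and Aplnr to Dyrk2 (0.90), Cxxc5 (0.90), and Nck2 (0.88). Cdh5 was closest to Prkar1a (0.89), Itga1 (0.83), and Stbd1 (0.83), Tek to Rab11b (0.92), F11r (0.91), and Pdia5 (0.90), and Angpt2 to Mpv17l2 (0.74), Arhgef2 (0.73), and Cdk20 (0.71). These coefficients describe libraries that share group, strain, and scaling. On deviations from the group means the r of the closest gene ranged from 0.67 (Angpt2) to 0.95 (Pecam1).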

How the data were processed

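Gastrocnemius RNA was enriched with oligo(dT), fragmented, and sequenced on a HiSeq2500 by the authors, with 4 mice per group. The authors deposited a table with raw, unnormalized counts for each gene in 16 columns. They also deposited 16 columns of FPKM, which implied 1 length per gene for the same counts (4407 genes checked, spread of at most 0.0927%). The submitters' processing notes name fastp, Bowtie2, HISAT2, and StringTie 1.3.1 and the builds mm9 and GRCm38, without roles. The strandedness of counting is not given in the sources used here. All columns were mapped to mice by name.

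The counts were fitted by edgeR 4.0.16 in R 4.3.3 after a filter (filterByExpr, minimum count 10, minimum total 15) and TMM scaling. Each comparison was a quasi-likelihood F test over its own 8 libraries, with Benjamini-Hochberg FDR over all genes tested. The study's NOISeq was not installed. DESeq2 1.42.0 and limma-voom (limma 3.58.1) were alternatives, with other scalings, filters, covariates, samples, a fold limit of 2, and each library left out. CPM used TMM factors over the 16 libraries, and log2 CPM a prior count of 2. FPKM served for levels between genes, ratios, and log2 ratios of means. CPM of single genes was also compared by exact two-sided permutation. The fits with lymphocyte or erythrocyte marker levels and without the 5 libraries low in lymphocyte markers were chosen after seeing the data. Scripts were tested on simulated counts. Adjusted p-values come from tests that judge group differences against the spread between mice. Libraries of a group differed beyond counting error (chi-square per degree of freedom of at least 66.6).

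The 10 genes and all lists were chosen with earlier results of these data known. Named genes are the 10, up to 4 genes per list with the lowest p among DEGs of CAC vs. NOR and of AM vs. CAC, ligands and receptors related to the 10, and the 3 genes most similar to each of the 10 by Pearson's r (mean of at least 1 CPM). Of 19 hypoxia response genes 18 were matched by symbol.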

Additional observations from a re-analysis of the deposited data

Results flagged for a closer look

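In 40 sets of 4 mice (10 genes in 4 groups), 3 had a mouse whose distance from the nearest other exceeded, as a share of the set's range, Dixon's 95% limit for 4 samples, which chance exceeds in about 1 in 20 sets. Angpt1 stood at 5.07 CPM in KD replicate 2, below the other KD mice, of which the nearest stood at 11.03 CPM. Apln stood at 10.6 CPM in AM replicate 4, above the other AM mice (nearest 3.63 CPM), and at 8.22 CPM in KD replicate 4, above the other KD mice (nearest 3.64 CPM).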

How the results depend on the processing

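The 5 DEGs of CAC vs. NOR became 6 with DESeq2 (with Kdr), 4 with upper-quartile scaling or all 16 libraries in 1 fit (without Flt1), 4 with the lymphocyte marker level as a covariate, 3 with a fold limit of 2, 2 in C57BL/6 mice alone (Kdr and Apln), 0 in BALB/c mice alone, 1 without the 5 libraries low in lymphocyte markers, 0 with the erythrocyte marker level as a covariate, and 2 to 6 when each library was left out (2 without NOR replicate 2; 3 without NOR replicate 1 or CAC replicate 1). The 1 DEG of AM vs. CAC became 3 with DESeq2. It became 0 without a count filter, with strain as a covariate, with all 16 libraries in 1 fit, with the erythrocyte covariate, in either strain alone, and without the 5 libraries, and was 0 or 1 when each library was left out. DESeq2 called 1 gene in KD vs. CAC, where the other alternatives called 0.

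The direction changed, without a call, in these cases. In CAC vs. NOR, Vegfa was 0.23 with the erythrocyte covariate. Cdh5 was 0.0474 with total counts, 0.0487 in BALB/c mice, 0.0473 as a ratio of mean FPKM, and -0.19 to 0.0722 with libraries left out. Angpt2 was 0.0521 with total counts, 0.0515 as a ratio of mean FPKM, and -0.17 to 0.0102 with libraries left out. In AM vs. CAC, Cdh5 was -0.0334 in C57BL/6 mice. Tek was 0.14 with the lymphocyte covariate, 0.00672 in C57BL/6 mice, 0.23 without the 5 libraries, and -0.15 to 0.0473 with libraries left out. Angpt2 was 0.00539 with the lymphocyte covariate, 0.0218 without the 5 libraries, and -0.16 to 0.0387 with libraries left out. In KD vs. CAC, Kdr was -0.10 in BALB/c mice, and Cdh5 was -0.10 with total counts and as a ratio of mean FPKM, -0.00810 with the lymphocyte covariate, and -0.0523 to 0.13 with libraries left out. Apln was 0.0683 in AM vs. NOR in BALB/c mice, and Pecam1 -0.18 in KD vs. NOR with the erythrocyte covariate. The cause of these changes was not tested, except that the strain and library settings use fewer mice.

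Replicate numbers do not mark the same animal. Deviations of same-numbered libraries from their group means had r of 0.60, 0.13, 0.34, and -0.19 for replicates 1 to 4 of CAC vs. NOR, so that not every pair was over 0.1, and the numbers were not taken to pair the samples. With the replicate block, 4 genes were DEGs in CAC vs. NOR, without Flt1, and 0 in AM or KD vs. CAC. At 4 mice per group, changes under the spread between mice were not detectable.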
